A study of Mus musculus with 6 samples.

Results

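The genes described here are 50 genes of mitosis, the step in which a cell condenses its duplicated chromosomes, attaches them to a spindle and divides. They were taken by symbol from a list of mitotic kinases, cyclins, kinesins, kinetochore proteins and cytokinesis factors. The rule reads no measured value, but the list was chosen with earlier results of these data known. All 50 had a gene row among the 22095 gene rows of the table. RNA had been sequenced from mouse CD8 T cells, the cytotoxic branch of the T lymphocytes. The 3 ponatinib libraries came from wild-type naive CD8 T cells of C57BL/6 spleens, activated for 48 h with antibodies to CD3 and CD28 together with 10 nM ponatinib, a tyrosine kinase inhibitor developed against the BCR-ABL fusion, in medium that held recombinant mouse IL-2. The 3 DMSO libraries came from cells of the same source, activated in the same way and for the same time with the solvent DMSO. The labels give neither age nor sex of the mice and do not say whether each replicate was its own mouse or culture, so the spread that the p-values rest on may be technical.

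Naive T cells do not divide, and activation through the T cell receptor and CD28 drives them into rapid divisions. As a dividing cell passes from DNA synthesis into mitosis, cyclin A and cyclin B activate the kinase CDK1, the Polo and Aurora kinases build the spindle, and the kinetochore, a protein plate on each centromere, holds the chromosomes to microtubules. The spindle checkpoint holds back the anaphase-promoting complex until every kinetochore is attached, after which cyclin B and securin are degraded and the cell is cut apart at the midzone. Many genes of these steps are transcribed late in the cell cycle from promoters that carry a cell cycle homology region, an element bound by the MuvB complex with its partners B-MYB and FOXM1, often with CCAAT boxes bound by NF-Y.

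Promoter sequences are shown because that element was not used to choose the genes. RefSeq windows on GRCm38.p6, from 250 bases before to 50 bases after each start, were found for 42 of the 50 genes. The letters searched, on both strands, were TTTGAA and TTTAAA for the core of the cell cycle homology region, CCAAT for the NF-Y box, and TTTCCCGC and TTTGGCGC for E2F sites. TTTGAA or TTTAAA occurred in the windows of 34 of the 42 mitotic genes (81.0%), of 1129 of 5166 genes tested for expression (21.9%) and of 8261 of all 27025 genes in the promoter table (30.6%). Among other genes of mitosis, described at the end, 34 of 63 held it (54.0%), and 8 of the 42 did not. CCAAT occurred for 29 of the 42 (69.0%), against 66.7% of the other genes of mitosis, 43.3% of genes tested for expression and 41.1% of all genes. Either E2F word occurred for 4 of the 42 (9.5%), against 9.5% of the other genes of mitosis, 4.3% of genes tested for expression and 1.8% of all genes. In the windows of the mitotic genes, 1 pair of matches overlapped. A match is a description of the letters and not a measured binding site. The stretches below hold the 140 bases just before the annotated start, on the gene's strand, with each match of a searched word in capitals. Cdc20, Ccnb1, Plk1, Cdk1 and Ube2c are shown as genes with the core before their start. Of these, Cdk1 was not called and the others were higher with ponatinib. Mki67 is shown as another gene with the core whose transcript was not called. Mad2l1 is shown as one without any searched word in its window whose transcript rose.
Cdc20: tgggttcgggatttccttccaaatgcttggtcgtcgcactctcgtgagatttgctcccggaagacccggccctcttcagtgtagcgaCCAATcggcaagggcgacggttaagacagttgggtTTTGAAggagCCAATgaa
Ccnb1: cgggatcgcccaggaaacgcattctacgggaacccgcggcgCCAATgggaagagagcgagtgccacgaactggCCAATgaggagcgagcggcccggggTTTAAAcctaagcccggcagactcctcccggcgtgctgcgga
Plk1: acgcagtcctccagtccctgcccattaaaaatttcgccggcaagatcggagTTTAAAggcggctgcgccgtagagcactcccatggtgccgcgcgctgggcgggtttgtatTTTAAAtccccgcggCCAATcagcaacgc
Cdk1: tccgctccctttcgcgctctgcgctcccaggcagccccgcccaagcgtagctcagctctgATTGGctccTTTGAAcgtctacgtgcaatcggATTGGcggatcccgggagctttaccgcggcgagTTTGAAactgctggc
Ube2c: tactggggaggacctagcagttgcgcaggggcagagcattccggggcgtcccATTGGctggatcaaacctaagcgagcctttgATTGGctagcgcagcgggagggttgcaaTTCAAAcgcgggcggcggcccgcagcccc
Mki67: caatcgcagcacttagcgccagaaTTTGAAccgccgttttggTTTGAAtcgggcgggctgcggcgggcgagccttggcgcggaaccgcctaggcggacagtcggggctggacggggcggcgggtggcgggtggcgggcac
Mad2l1: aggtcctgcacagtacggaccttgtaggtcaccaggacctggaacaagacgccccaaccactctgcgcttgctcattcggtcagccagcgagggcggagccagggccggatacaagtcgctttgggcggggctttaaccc
The Cdc20 stretch lies at chr4:118437344-118437483 on the minus strand, Ccnb1 at chr13:100786487-100786626 on the minus strand and Plk1 at chr7:122159295-122159434 on the plus strand. Cdk1 lies at chr10:69352913-69353052 on the minus strand, Ube2c at chr2:164769789-164769928 on the plus strand, Mki67 at chr7:135716380-135716519 on the minus strand and Mad2l1 at chr6:66535081-66535220 on the plus strand. In Plk1 the core stood on the gene's strand as TTTAAA at positions -89 and -29, and in Cdc20 as TTTGAA at position -18, counting -1 as the last base before the start. Of the 23 genes with a window whose transcript was higher with ponatinib, 21 held the core, and of the 17 that were tested and not called, 12 did. Mad2l1 and Nuf2 rose and held none of the searched core words in this window. The Mad2l1 window was placed on a RefSeq start just after chr6:66535220, whereas its GENCODE gene begins at 66535390. The bases just before that GENCODE start were not searched.

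All transcript levels are in TPM, transcript abundances scaled to 1 common total per library. The unit allows for transcript length, so levels can be set side by side between genes, with 1 limit. Unless said otherwise, levels are those of gene rows. Separate transcript rows held 74.3% of the TPM of Cenpa, 60.6% of Cenpk, 29.9% of Kif20b and 25.3% of Kif23. For these 4 genes the gene row is only part of the gene's TPM. Differences are log2 fold changes, ponatinib minus DMSO, on the log2(TPM + 1) scale. A gene was tested when its mean over the 6 libraries reached 10 TPM and called when its adjusted p in the limma fit over all 6466 tested genes was under 0.05. TPM keep no read depth, so no counting interval is given. Between 6491 and 6535 gene rows reached 10 TPM in the ponatinib libraries and between 6182 and 6620 in the DMSO libraries. The CD8 T cell markers Cd8a and Cd8b1 were summed with the T cell genes Cd3e, Cd3d and Cd3g. The sum was 1562 to 1795 TPM with ponatinib and 1332 to 1354 TPM with DMSO. Cd3e, Cd3d and Cd3g do not tell CD8 from CD4 T cells, and the levels of Cd3d and Cd3g overlapped between the groups. The summed levels of markers of other cells were low but higher with ponatinib: 8 B cell markers summed to 17.7 to 19.9 TPM with ponatinib and 7.38 to 14.3 TPM with DMSO, and 4 CD4 T cell markers to 16.4 to 19.7 TPM with ponatinib and 5.21 to 9.53 TPM with DMSO. The 8 myeloid markers summed to 2.31 to 4.43 TPM with ponatinib and 0.344 to 1.10 TPM with DMSO, 5 NK cell markers to 3.82 to 6.69 TPM with ponatinib and 0.831 to 1.52 TPM with DMSO, and 6 erythroid and platelet markers to 2.26 to 4.87 TPM with ponatinib and 0.454 to 1.20 TPM with DMSO. Single markers did not all follow the sums: Zbtb7b, a transcription factor of the CD4 lineage, was at 1.03, 1.10 and 0.978 TPM with ponatinib and at 2.48, 1.46 and 4.64 TPM with DMSO. Ncr1, an NK cell receptor gene, was listed at 0 in all DMSO libraries. The part of such cells in the mitotic values was not tested, and in bulk RNA more cells in mitosis and more RNA per cell cannot be told apart. DMSO replicate 3 stood apart from the other DMSO libraries: mitochondrially encoded genes took 7.16% to 8.19% of TPM with ponatinib, and 4.78% in DMSO replicate 3 beside 9.76% and 10.7% in the other DMSO libraries.

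With ponatinib the mitotic transcripts were present at slightly higher levels than with DMSO, and no large change was seen in any of them. Of the 50 genes 48 were tested, 27 were higher and 0 were lower, where 29.9% of all tested genes were called higher and 9.88% lower. The 27 make 56.2% of the tested mitotic genes. Log2 fold changes ran from -0.39 for Pttg1 to 0.49 for Kif20b, with a median of 0.21 and a median SE of 0.06. All tested genes had a median of 0.10 rather than 0, and 37 of the 48 lay above it. The ponatinib libraries all stood above the DMSO libraries in 34 of the 48, where 39.4% of all tested genes did so, and all below in 1, Aurkb, where 14% did so. When libraries were scaled by medians of ratios, which moved the median of all tested genes to 0.00, 18 mitotic genes were higher and 3 lower, against 16.4% and 18% of all tested genes. All 18 were among the 27. Quantile normalization gave 20 higher and 2 lower, against 19.7% and 15.5% of all tested genes. With transcript rows added to gene rows 23 were higher and 0 lower, against 27.3% and 9.15%, and without mitochondrially encoded genes 29 were higher and 1 lower, against 30.5% and 11.7%.

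**Figure D1:**
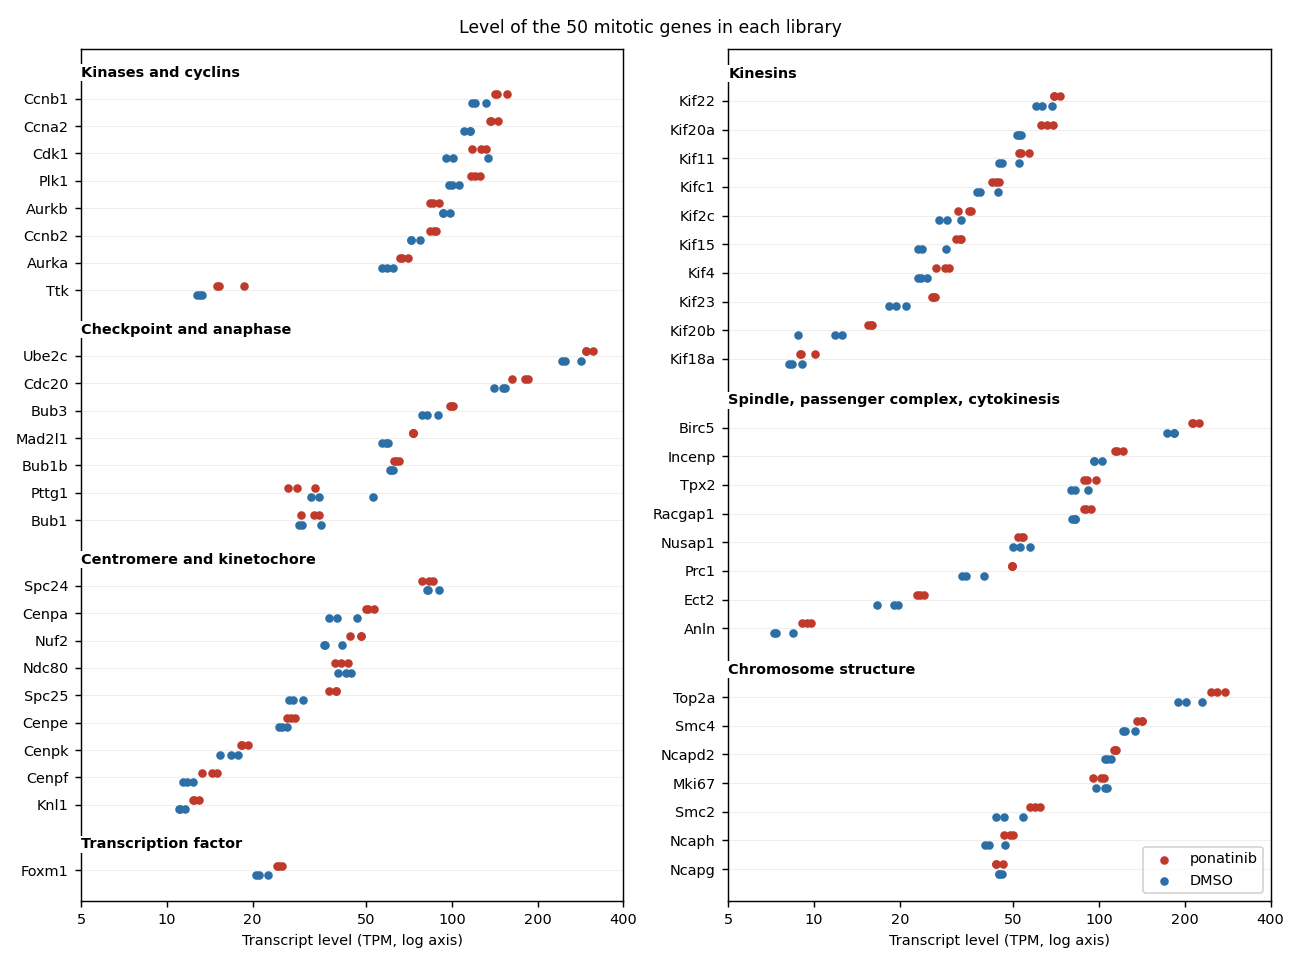
Transcript level of each of the 50 mitotic genes in each of the 6 libraries, in TPM on a log axis, grouped by role and ordered by mean level; red points are the 3 ponatinib libraries and blue points the 3 DMSO libraries. Mean levels run from 8.54 TPM for Anln to 281 TPM for Ube2c, and the distance between the groups is small beside the distance between genes.

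Single libraries moved the count but not its direction. With 1 library left out, between 13 and 36 of the 48 were higher and 0 lower. There were 19 higher when ponatinib replicate 1 was dropped, where 23.7% of all tested genes were higher and 7.24% lower. Dropping ponatinib replicate 2 gave 16 (all tested genes 18.5% higher, 7.17% lower), and dropping ponatinib replicate 3 gave 13 (17.6% higher, 7.24% lower). Dropping DMSO replicate 1 gave 15 (19.9% higher, 7.75% lower), dropping DMSO replicate 2 gave 18 (22.4% higher, 9.61% lower), and dropping DMSO replicate 3 gave 36 (42.7% higher, 10.5% lower). In 42 of the 50 genes DMSO replicate 3 had the highest level of the DMSO libraries, and in 15 it lay above the lowest ponatinib library. DMSO replicate 1 or 2 did so in 8 genes. Birc5, Bub3, Ccna2, Incenp, Kif20a, Kif23, Mad2l1, Plk1, Prc1, Spc25 and Top2a, 11 of the 27, were higher in every alternative that tested them.

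**Figure D2:**
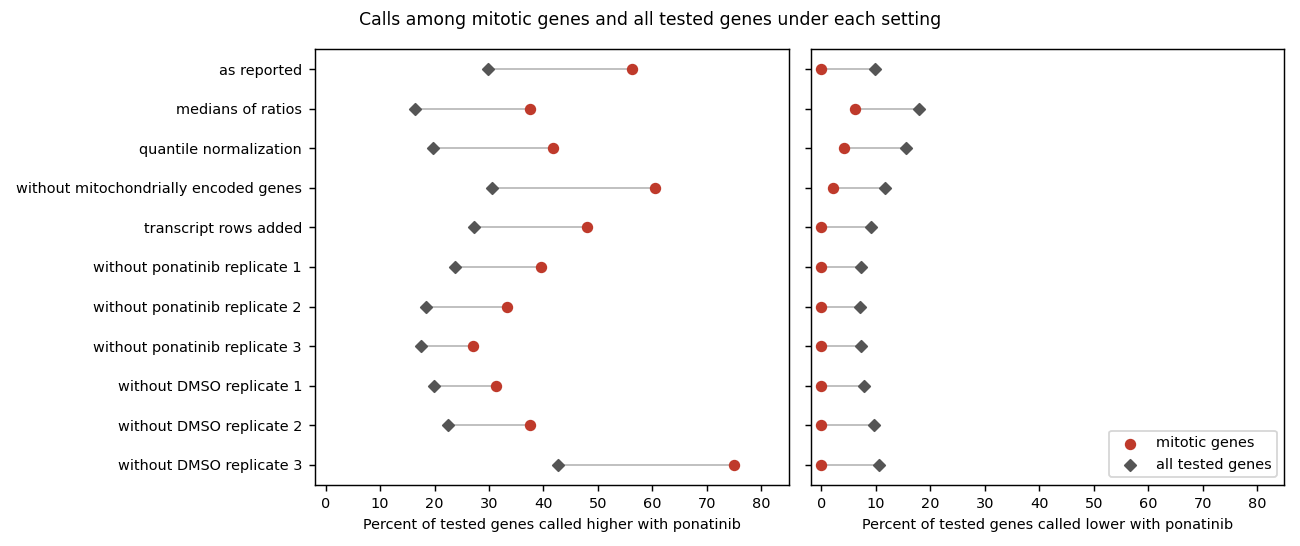
Percent of tested genes called higher (left) and lower (right) with ponatinib under each setting, for the mitotic genes (red circles) and for all tested genes (grey diamonds). In every setting drawn the mitotic genes lie to the right of all tested genes for higher calls and to the left for lower calls, and the distance is smallest without ponatinib replicate 3, at 27.1% against 17.6%.

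The mitotic kinases and cyclins gave 6 of 8 genes higher and 0 lower. The 6 make 75%, where 29.9% of all tested genes were higher and 9.88% lower. The median difference of the group was 0.24 on the log2 scale, beside 0.10 for all tested genes. Ccna2 encodes cyclin A2, which works with CDK2 and CDK1 from DNA synthesis into early mitosis. It was at 137, 137 and 145 TPM with ponatinib and at 110, 116 and 115 TPM with DMSO, and rose by 0.29 (SE 0.05, adjusted p = 0.00350). Every ponatinib library lay above every DMSO library. Ccna2 shares 13.3% of its 31-base words with Exosc9 on the other strand, which averaged 65.3 TPM. Plk1, the Polo-like kinase that drives mitotic entry and spindle assembly, was at 117, 121 and 126 TPM with ponatinib and at 98.0, 99.9 and 106 TPM with DMSO (0.25, SE 0.05, adjusted p = 0.00826). The groups did not overlap here either. Ccnb1, cyclin B1, the main partner of CDK1, stood at 141, 144 and 156 TPM with ponatinib and at 118, 121 and 132 TPM with DMSO (0.25, SE 0.06, adjusted p = 0.0159). Its call was lost without ponatinib replicate 3 and without DMSO replicate 1. Ccnb1 shares 39.3% of its 31-base words with the pseudogene Ccnb1-ps, so its level is less certain. Ccnb2, cyclin B2, was at 84.0, 87.9 and 86.8 TPM with ponatinib and at 71.6, 71.8 and 77.4 TPM with DMSO (0.23, SE 0.05, adjusted p = 0.0123). Its groups did not overlap, and it lost its call with medians of ratios, without ponatinib replicate 2 and without DMSO replicate 1.

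Ttk, the checkpoint kinase MPS1, and Aurka, the centrosomal Aurora kinase, rose by 0.30 and 0.18 with adjusted p of 0.0387 and 0.0380. Neither call held with medians of ratios, with quantile normalization, without DMSO replicate 1 or 2, or without ponatinib replicate 2 or 3. That of Aurka was also lost without ponatinib replicate 1, and that of Ttk with no filter and with transcript rows added. Cdk1 itself was not called. It was at 126, 117 and 131 TPM with ponatinib and at 101, 95.2 and 134 TPM with DMSO, a log2 fold change of 0.19 (95% interval -0.08 to 0.47, adjusted p = 0.232). The highest of the 6 values was that of DMSO replicate 3, and without that library Cdk1 was higher with a log2 fold change of 0.34 (adjusted p = 0.00159). Aurkb, the Aurora kinase of the chromosomal passenger complex, was the member of this group with a negative value. It was at 85.6, 83.6 and 90.1 TPM with ponatinib and at 93.0, 93.0 and 98.4 TPM with DMSO, so that the groups did not overlap. Its log2 fold change was -0.13 (SE 0.05, adjusted p = 0.0798), and it was called lower with medians of ratios (-0.24, adjusted p = 0.00574), with quantile normalization (-0.20, adjusted p = 0.0114) and with mitochondrially encoded genes left out (adjusted p = 0.0441).

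**Figure D3:**
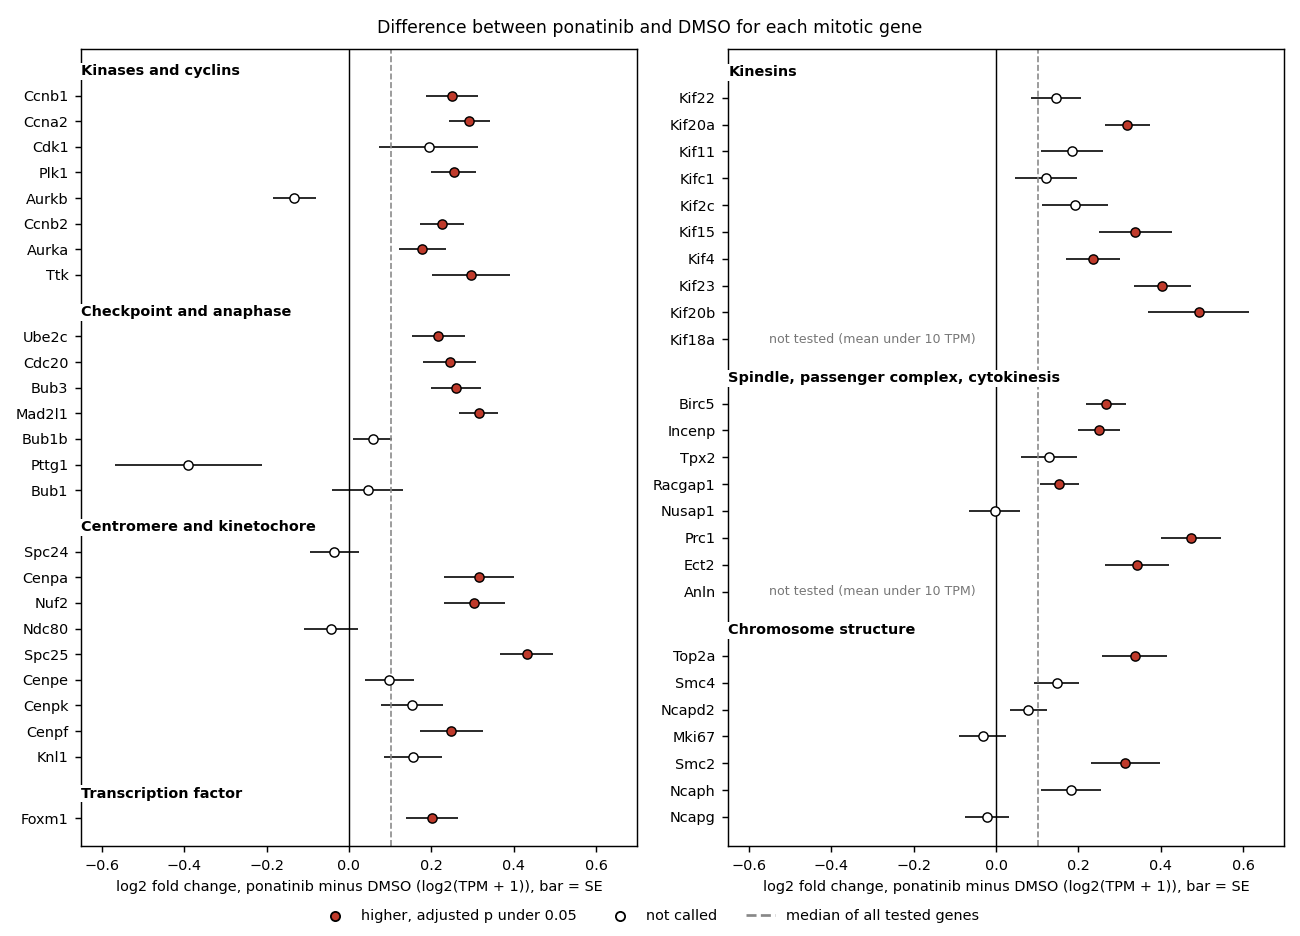
Log2 fold change of each mitotic gene, ponatinib minus DMSO on the log2(TPM + 1) scale, with its SE as a bar, grouped by role; red points are genes called higher, open points genes not called, and the dashed line is the median of all tested genes, 0.10. Most genes lie to the right of the dashed line, while Aurkb and Pttg1 lie to the left of 0 by more than their SE.

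Of the 7 genes of the spindle checkpoint and anaphase control, 4 were higher and 0 lower, with a median of 0.22. The 4 make 57.1%, where 29.9% of all tested genes were higher and 9.88% lower. Mad2l1 encodes MAD2, the checkpoint protein that binds CDC20 at unattached kinetochores. It was at 72.9, 72.8 and 73.2 TPM with ponatinib and at 58.7, 59.6 and 57.0 TPM with DMSO (0.32, SE 0.05, adjusted p = 0.00218). The spread within each group was far smaller than the distance between them. Bub3, a checkpoint scaffold, was at 98.4, 99.2 and 101 TPM with ponatinib and at 81.6, 78.3 and 89.6 TPM with DMSO (0.26, SE 0.06, adjusted p = 0.0116). Cdc20, which activates the anaphase-promoting complex, was at 162, 181 and 184 TPM with ponatinib and at 153, 151 and 140 TPM with DMSO (0.25, SE 0.06, adjusted p = 0.0189). Both pairs of groups were separate. Cdc20 shares 25.1% of its 31-base words with Gm7856. The Cdc20 call was lost with medians of ratios, with quantile normalization and without ponatinib replicate 2 or 3.

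Ube2c, the ubiquitin-conjugating enzyme of the anaphase-promoting complex, had the highest level of all 50 genes, 296, 297 and 312 TPM with ponatinib and 250, 244 and 285 TPM with DMSO. It rose by 0.22 (SE 0.06, adjusted p = 0.0305), with no overlap between the groups, and its call was lost with medians of ratios, with no filter and when any library other than DMSO replicate 3 was left out. Bub1 and Bub1b, the checkpoint kinase and its relative BUBR1, were not called, at 0.05 (95% interval -0.15 to 0.25) and 0.06 (95% interval -0.05 to 0.17). Pttg1 encodes securin, the inhibitor of separase that is destroyed at anaphase. It was at 26.5, 28.5 and 33.1 TPM with ponatinib and at 34.1, 32.0 and 52.9 TPM with DMSO, a log2 fold change of -0.39 (SE 0.18, adjusted p = 0.116). DMSO replicate 3 was far above the other libraries, and without it the log2 fold change of Pttg1 was -0.17. Pttg1 was called lower with medians of ratios (adjusted p = 0.0427) and with quantile normalization (adjusted p = 0.0450).

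Centromere and kinetochore genes had 4 of 9 higher and 0 lower, with a median of 0.15. The 4 make 44.4%, where 29.9% of all tested genes were higher and 9.88% lower. Spc25 and Nuf2, subunits of the NDC80 complex that grips the microtubule, rose, and Ndc80 and Spc24, the other subunits of the same complex, were not called. Spc25 was at 39.1, 39.1 and 37.0 TPM with ponatinib and at 26.9, 27.7 and 30.1 TPM with DMSO (0.43, SE 0.06, adjusted p = 0.00206), and its gene spans 69193895 to 69206194 on chromosome 2 (GRCm38, minus strand). Nuf2 was at 48.0, 43.8 and 47.9 TPM with ponatinib and at 35.6, 36.0 and 41.0 TPM with DMSO (0.30, SE 0.07, adjusted p = 0.0131). In both genes the groups were separate, but the Nuf2 call was lost without ponatinib replicate 3 and without DMSO replicate 1.

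Spc24 was at 78.6, 82.9 and 85.8 TPM with ponatinib and at 82.2, 81.7 and 89.8 TPM with DMSO (-0.04, 95% interval -0.17 to 0.10), and Ndc80 averaged 40.9 ± 2.11 TPM with ponatinib and 42.2 ± 2.31 TPM with DMSO (SD, n = 3 each; 95% interval of the log2 fold change -0.19 to 0.11). Both pairs of groups overlapped. With medians of ratios Spc24 was called lower (-0.14, adjusted p = 0.0445). The ratio of Spc24 to Spc25 TPM within a library was 2.01, 2.12 and 2.32 with ponatinib and 3.06, 2.95 and 2.98 with DMSO, and that of Ndc80 to Nuf2 was 0.850, 0.886 and 0.899 with ponatinib and 1.11, 1.18 and 1.08 with DMSO. Such ratios do not change when each library is scaled by a single factor, as with medians of ratios. Quantile normalization can change them. They were picked after the values had been seen, so no test is given.

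Cenpa encodes the histone H3 variant that marks centromeres. Its gene row was at 49.8, 53.2 and 50.7 TPM with ponatinib and at 39.6, 37.2 and 46.6 TPM with DMSO (0.32, SE 0.09, adjusted p = 0.0209), with separate groups. A further 5 transcript rows of Cenpa held 74.3% of its TPM; with them added the log2 fold change was 0.11 and the call was lost (adjusted p = 0.159), as it was without ponatinib replicate 2 or 3 and without DMSO replicate 1 or 2. The transcript rows of Cenpa summed to 129, 138 and 140 TPM with ponatinib and to 141, 125 and 129 TPM with DMSO. Cenpf, a large kinetochore and nuclear matrix protein, rose by 0.25 (adjusted p = 0.0344). That call was lost with medians of ratios, with quantile normalization, with no filter and when any library other than DMSO replicate 3 was left out. Knl1, Cenpk and Cenpe, the scaffold of the outer kinetochore, an inner kinetochore subunit and a kinetochore kinesin, lay between 0.10 and 0.15 and were not called.

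**Figure D4:**
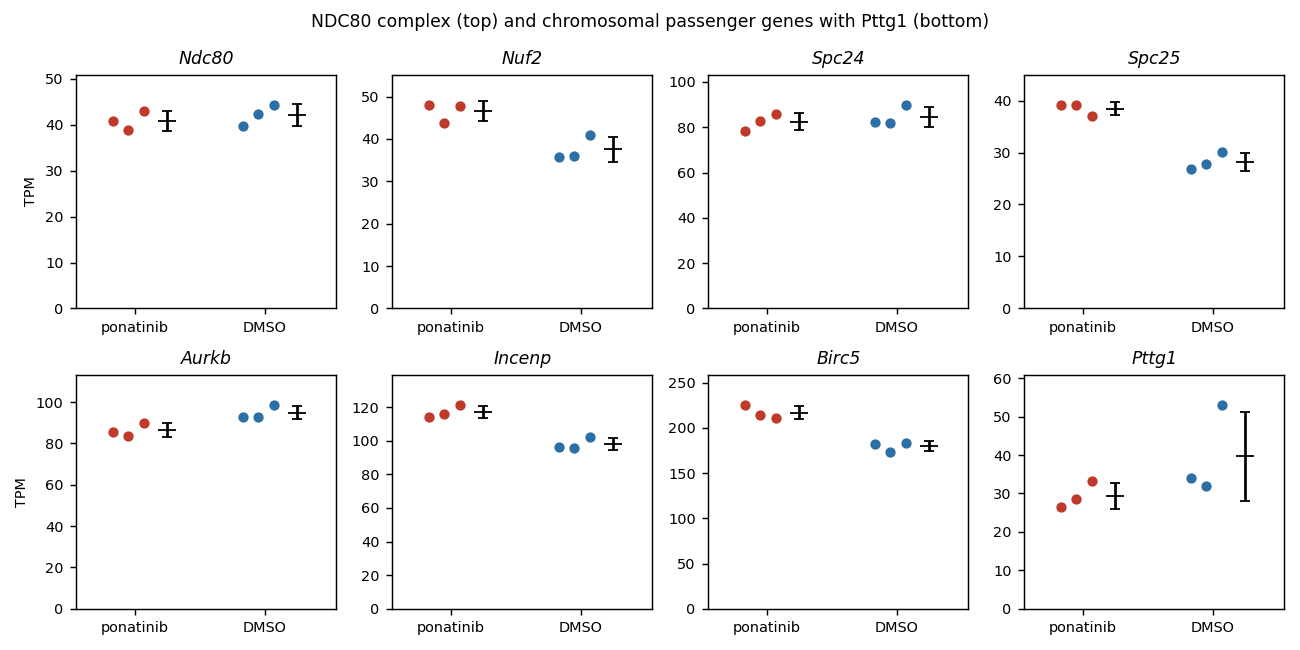
Levels in TPM of the 4 subunits of the NDC80 complex (top row) and of the passenger genes Aurkb, Incenp and Birc5 with Pttg1 (bottom row); each point is a library, ponatinib left and DMSO right, and bars are the mean ± SD of 3 libraries. Nuf2, Spc25, Incenp and Birc5 are separate and higher with ponatinib, Aurkb is separate and lower, and Ndc80, Spc24 and Pttg1 overlap.

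Kinesins, motor proteins that slide or shorten microtubules, gave 5 of 9 tested genes higher and 0 lower. The 5 make 55.6%, where 29.9% of all tested genes were higher and 9.88% lower. The kinesins had a median of 0.24 and values from 0.12 to 0.49. Kif23, the MKLP1 motor of centralspindlin at the spindle midzone, was at 26.1, 26.5 and 25.8 TPM with ponatinib and at 18.3, 19.4 and 21.1 TPM with DMSO (0.40, SE 0.07, adjusted p = 0.00372). The groups were separate. The Kif23 gene spans 61915905 to 61946774 on chromosome 9 (GRCm38, minus strand). Kif20a, the MKLP2 motor that carries the passenger complex to the midzone, was at 62.7, 65.5 and 68.9 TPM with ponatinib and at 52.3, 51.7 and 53.3 TPM with DMSO (0.32, SE 0.05, adjusted p = 0.00372). It overlaps Cdc23 on the other strand, with which it shares 28.7% of its 31-base words. The labels do not say whether the kit kept strand, so reads of the 2 genes may not be separable. The same holds for Ccna2 with Exosc9, Kif4 with Pdzd11 and Prc1 with Rccd1. Cdc23 averaged 28.4 TPM over the 6 libraries.

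Kif20b had the largest log2 fold change of the 48, at 16.0, 15.8 and 15.5 TPM with ponatinib and 11.8, 8.78 and 12.6 TPM with DMSO (0.49, SE 0.12, adjusted p = 0.0155). That value belongs to its gene row alone: the transcript rows of Kif20b summed to 2.54, 3.01 and 3.99 TPM with ponatinib and to 8.93, 9.06 and 6.76 TPM with DMSO, and with them added its log2 fold change was -0.02 (adjusted p = 0.845). The call was also lost when any 1 ponatinib library was left out. Kif15 and Kif4, a spindle motor and the chromokinesin KIF4A, rose by 0.34 and 0.24; both calls were lost without ponatinib replicate 3 and without DMSO replicate 1, that of Kif15 also without ponatinib replicate 1 and without DMSO replicate 2, and that of Kif4 also without ponatinib replicate 2 and with both other scalings. Kif4 shares 16.2% of its 31-base words with Pdzd11 on the other strand, at 34.8 TPM on average where Kif4 averaged 26.2 TPM. Kif22, the kinesin with the highest level, was at 69.7, 69.3 and 73.0 TPM with ponatinib and at 63.3, 60.2 and 68.1 TPM with DMSO and was not called (0.14, SE 0.06, adjusted p = 0.0917), although its groups did not overlap. Kif11, the Eg5 motor that pushes spindle poles apart, Kif2c and Kifc1 lay at 0.18, 0.19 and 0.12 and were not called. Kifc1 shares 56.7% of its 31-base words with its paralog Kifc5b. Kif18a, which dampens chromosome oscillation, averaged under 10 TPM over the 6 libraries and was not tested, at 9.36 ± 0.650 TPM with ponatinib and 8.51 ± 0.470 TPM with DMSO (SD, n = 3 each).

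The spindle, passenger complex and cytokinesis genes had 5 of 7 tested genes higher and 0 lower, with a median of 0.25. The 5 make 71.4%, where 29.9% of all tested genes were higher and 9.88% lower. Prc1, which bundles the microtubules of the midzone, was at 49.6, 49.4 and 49.6 TPM with ponatinib and at 33.0, 34.2 and 39.4 TPM with DMSO (0.47, SE 0.07, adjusted p = 0.00237). The ponatinib values were nearly equal and the groups were separate. The Prc1 gene spans 80294450 to 80316259 on chromosome 7 (GRCm38, plus strand), and its transcripts share 20.6% of their 31-base words with Rccd1 on the other strand, which averaged 1.57 TPM. Birc5, the passenger subunit survivin, was at 225, 214 and 211 TPM with ponatinib and at 183, 174 and 184 TPM with DMSO (0.27, SE 0.05, adjusted p = 0.00465), and Incenp, the scaffold of the same complex, at 114, 116 and 121 TPM with ponatinib and at 96.3, 95.8 and 102 TPM with DMSO (0.25, SE 0.05, adjusted p = 0.00718). Survivin and INCENP transcripts thus were higher while Aurkb, the kinase of the complex, was not. The ratio of Aurkb to Incenp TPM was 0.751, 0.723 and 0.745 with ponatinib and 0.966, 0.971 and 0.962 with DMSO, and that of Aurkb to Birc5 was 0.381, 0.391 and 0.426 with ponatinib and 0.509, 0.536 and 0.535 with DMSO; both ratios were picked after the values had been seen. Cdca8, which encodes borealin, the remaining subunit, was at 111 ± 4.68 TPM with ponatinib and 109 ± 4.43 TPM with DMSO (SD, n = 3 each; log2 fold change 0.04, adjusted p = 0.615).

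Ect2 and Racgap1, which switch on RhoA at the division plane, rose by 0.34 and 0.15 with adjusted p of 0.0106 and 0.0353, and both calls were lost with transcript rows added (adjusted p of 0.140 and 0.0511). Racgap1 also lost its call with medians of ratios, with quantile normalization and with mitochondrially encoded genes left out. The same held when any library other than DMSO replicate 3 was left out. Tpx2 and Nusap1, spindle assembly proteins, were not called, at 0.13 and -0.004. Anln, anillin of the contractile ring, averaged under 10 TPM and was not tested at that minimum, at 9.43 ± 0.341 TPM with ponatinib and 7.66 ± 0.647 TPM with DMSO (SD, n = 3 each); with a minimum of 1 TPM it was tested and higher (0.27, adjusted p = 0.0443).

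Chromosome structure genes had 2 of 7 higher and 0 lower, 28.6% against 29.9% of all tested genes, with a median of 0.15. Top2a, topoisomerase II alpha, which untangles sister chromatids, was at 276, 248 and 259 TPM with ponatinib and at 202, 189 and 231 TPM with DMSO (0.34, SE 0.08, adjusted p = 0.0122). Smc2, a core ATPase of condensin, was at 59.7, 57.4 and 61.9 TPM with ponatinib and at 46.3, 43.5 and 54.1 TPM with DMSO (0.31, SE 0.08, adjusted p = 0.0195). In both the groups were separate, with DMSO replicate 3 nearest to ponatinib. The Smc2 call was lost when any library other than ponatinib replicate 2 or DMSO replicate 3 was left out. Smc4, its partner ATPase, was at 142, 136 and 142 TPM with ponatinib and at 123, 121 and 134 TPM with DMSO and was not called (0.15, SE 0.05, adjusted p = 0.0635). Of the condensin I subunits Ncaph, Ncapd2 and Ncapg, at 0.18, 0.08 and -0.02, none was called. The ratio of Ncapg to Smc2 TPM was 0.743 ± 0.0144 with ponatinib and 0.945 ± 0.0917 with DMSO (SD, n = 3 each), picked after the values had been seen.

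Mki67 encodes Ki-67, the protein on the surface of mitotic chromosomes whose antibody stain is the usual mark of dividing cells. It was at 104, 102 and 95.2 TPM with ponatinib and at 106, 105 and 97.6 TPM with DMSO, and the groups overlapped. Its log2 fold change was -0.03 (95% interval -0.17 to 0.10, adjusted p = 0.684). The ratio of Mki67 to Top2a TPM was 0.378, 0.411 and 0.367 with ponatinib and 0.527, 0.554 and 0.423 with DMSO, chosen after the values had been seen. Foxm1, the transcription factor that drives many of these genes, was at 25.4, 24.6 and 24.3 TPM with ponatinib and at 22.7, 20.5 and 21.1 TPM with DMSO (0.20, SE 0.06, adjusted p = 0.0380). Its groups were separate, but the call was lost with medians of ratios (log2 fold change 0.10), with quantile normalization, without any 1 ponatinib library and without DMSO replicate 2.

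Set side by side, the role groups with the larger shares of higher genes were the kinases and cyclins and the spindle, passenger and cytokinesis genes, at 75% and 71.4% of tested genes, and that with the smallest was chromosome structure, at 28.6%, where 29.9% of all tested genes were higher. That order did not hold with medians of ratios, where 16.4% of all tested genes were higher and 18% lower. Then 3 of 8 kinases and cyclins, 4 of 7 spindle, passenger and cytokinesis genes, 4 of 9 kinesins and 3 of 9 kinetochore genes were higher. Of the 7 checkpoint and anaphase genes 2 were higher, as were 2 of 7 chromosome structure genes. Lower genes were 1 each among the kinases and cyclins, the checkpoint and anaphase genes and the kinetochore genes. These differences between groups of 7 to 9 genes were not tested. Summed over the kinesins, levels were 370, 378 and 392 TPM with ponatinib and 314, 307 and 346 TPM with DMSO. Summed over the kinetochore genes they were 330, 332 and 335 TPM with ponatinib and 287, 289 and 320 TPM with DMSO. In all role groups the 3 ponatinib sums lay above the 3 DMSO sums. The same was seen in 2 lists described below. Other genes of mitosis summed to 2833 to 2971 TPM with ponatinib and 2547 to 2797 TPM with DMSO. DNA replication genes summed to 4048 to 4224 TPM with ponatinib and 3698 to 3807 TPM with DMSO. Sums of the G1 and S phase list overlapped. Among single genes, 39.4% of all tested had every ponatinib library above every DMSO library.

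A further 76 genes of mitosis, not among the 50, were listed from textbook knowledge, with earlier results of these data known. Of these other genes 68 were tested, 16 were higher and 4 lower, with a median of 0.15. The 16 make 23.5% of those tested, below the 29.9% of all tested genes called higher. Of all tested genes 9.88% were called lower. Nek2, a centrosomal kinase, was at 34.8, 35.0 and 36.7 TPM with ponatinib and at 26.2, 24.8 and 26.7 TPM with DMSO (0.44, SE 0.06, adjusted p = 0.00135). Ckap2 and Zwint, a spindle protein and a kinetochore protein, rose by 0.46 and 0.34, and Lmnb1, lamin B1 of the nuclear envelope, by 0.32. Among the 4 lower genes, Pkmyt1, the kinase that inhibits CDK1, was at 25.8, 25.7 and 29.2 TPM with ponatinib and at 35.6, 37.5 and 40.2 TPM with DMSO (-0.47, SE 0.07, adjusted p = 0.00256). The others encode centromere proteins: Cenpt fell by 0.31, Hjurp, the chaperone of CENP-A, by 0.29 and Cenpp by 0.24. With medians of ratios 6 of the 68 were higher and 6 lower, where 16.4% and 18% of all tested genes were, and with 1 library left out the number of higher genes ran from 4, without ponatinib replicate 3, to 29, without DMSO replicate 3. It was 9 when ponatinib replicate 2 was dropped, 6 for DMSO replicate 1 and 7 for DMSO replicate 2. Of all tested genes 17.6% were higher without ponatinib replicate 3 and 42.7% without DMSO replicate 3. The share was 18.5% without ponatinib replicate 2, 19.9% without DMSO replicate 1 and 22.4% without DMSO replicate 2. Lower genes numbered 2 when ponatinib replicate 1 or 2 was dropped and 1 for ponatinib replicate 3. Of all tested genes 7.24%, 7.17% and 7.24% were lower without ponatinib replicates 1, 2 and 3.

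For comparison with the steps before mitosis, 34 DNA replication genes were tested and 12 were higher and 1 lower, with a median of 0.10, equal to that of all tested genes. The 12 make 35.3% of those tested, where 29.9% of all tested genes were higher and 9.88% lower. Scaling by medians of ratios left 4 higher and 3 lower, where 16.4% and 18% of all tested genes were. Rrm2 and Rrm1, the subunits of ribonucleotide reductase, rose by 0.49 and 0.28 with adjusted p of 0.00218 and 0.00325. The lower gene, Pold1, the catalytic subunit of DNA polymerase delta, fell by 0.27 (adjusted p = 0.00632) and was named after its values had been seen. Of 14 tested G1 and S phase cyclins, kinases and regulators only Ccne2, cyclin E2, was called, at 24.7 ± 1.26 TPM with ponatinib and 19.0 ± 0.993 TPM with DMSO (SD, n = 3 each; 0.36, adjusted p = 0.00578). That 1 gene makes 7.14% of the 14, where 29.9% of all tested genes were higher and 9.88% lower. With medians of ratios 1 of the 14 was higher and 1 lower, where 16.4% and 18% of all tested genes were. The lower gene was then Cdkn1a (log2 fold change -0.56, adjusted p = 0.0479). Cdkn1a was not called in the fit reported (-0.46, adjusted p = 0.108), although its groups did not overlap. No difference between these lists and the mitotic genes was tested.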

How the data were processed

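RNA-seq libraries of total RNA from activated mouse CD8 T cells, 3 with ponatinib and 3 with DMSO, had been made with a NEBNext Ultra II RNA kit, per the labels' protocols; groups and replicate numbers come from the sample titles. The authors deposited 1 table of 43072 rows, 22095 with gene and 20977 with transcript identifiers. Its name speaks of normalized counts, but each deposited column adds up to 1000000, so the values were treated as TPM. GRCm38, Salmon 1.5.1, fastp 0.19.5 and DESeq2 1.22.1 are named, per the submitters' processing notes, with no role given. How transcript values became gene values is not stated. TPM divide reads by transcript length and by the library's total, so a change in abundant genes moves all others, and the read depth is unknown; precision is set by the spread between 3 libraries a group.

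Gene rows alone were used, since the mitotic genes were defined as gene rows; 22011 were named from GENCODE M21 identifiers without version. The 34 mitotic genes with further transcript rows, 83 rows in all and 0 of them in GENCODE's basic set, were also fitted with those rows added. Genes averaging 10 TPM or more were tested on log2(TPM + 1) with limma 3.58.1 (trend setting) in R 4.3.3, two-sided, with Benjamini-Hochberg adjustment over all tested genes; every adjusted p comes from such a fit. The test was checked on simulated data with equal numbers of rises and falls and independent noise. The simulation held no shift shared by a whole library and no outlying library, so it does not cover those. Shared 31-base words were counted between GENCODE M21 protein-coding transcripts of the mitotic genes and transcripts of all other genes, on either strand.

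The mitotic genes, role groups and other lists were chosen with earlier results of these data known. Values in every library are given for Cdk1, Ccnb1, Plk1, Aurkb, Mki67, Top2a and Foxm1, for the 3 smallest p and the highest level in each role group, and for members called lower; of the other mitosis genes the 4 smallest p in each direction are named, and of the replication and G1 lists the 2 smallest p among called genes. Other genes named, and Pttg1, were chosen after their values were seen. Beside the fit reported, 16 other settings were run, and 1 more was chosen after seeing the data, in which mitochondrially encoded genes were left out and libraries rescaled to 1 total.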

Additional observations from a re-analysis of the deposited data

How the results depend on the processing

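TPM give no depth, so what read number limits is unknown, and 3 libraries a group set the precision. Pseudocounts of 0.1 and 5, robust empirical Bayes and a minimum mean of 1 TPM kept every count of calls within 1.5 times. A minimum mean of 100 TPM, which leaves fewer genes to test, gave 8 mitotic genes higher of 12, and 1 and 0 other mitosis genes higher and lower. Of the 1232 genes tested at that minimum, 428 (34.7%) were higher and 137 (11.1%) lower. With no filter 2 other mitosis genes were lower, where 6.23% of the 15090 genes then tested were. Medians of ratios gave 3 mitotic genes lower, a mitotic median of 0.106, 6 other mitosis genes higher, and 1059 higher and 1166 lower among all tested genes, of which 1931 and 639 were so as reported; quantile normalization gave 2 mitotic genes lower, 8 other mitosis genes higher, and 1276 and 1001 of all tested genes. The cause was not tested. With mitochondrially encoded genes left out 29 mitotic genes were higher and 1, Aurkb, was lower. Adding transcript rows turned the log2 fold change of Kif20b to -0.022. With 1 library left out, the mitotic genes had 13 to 36 higher and 0 lower and a median of 0.174 to 0.258, other mitosis genes 4 to 29 higher and 1 to 4 lower, and all tested genes 1138 to 2745 higher and 463 to 677 lower. For libraries with the same replicate number, deviations from the group means correlated across genes at -0.098, 0.127 and 0.009. Of the 3 ponatinib libraries 1 correlated best with its own number. Deviations within a group of 3 are tied to each other and DMSO replicate 3 stood apart. These correlations therefore cannot tell whether replicates were paired. With the replicate number as a block, 26 mitotic genes were higher and 1, Pttg1, lower (-0.390, adjusted p = 0.0248); Foxm1 and Cenpf lost their calls and Kif11 became higher. Of all tested genes 1911 (29.6%) were then higher and 646 (9.99%) lower.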
